A study of Oryza sativa with 18 samples.

Results

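The chromatin of 10 cell states of the rice seed was followed from an early to a late stage of seed development. Nuclei came from fresh tissue of the rice genotype Nipponbare and were profiled by ATAC-seq in droplets, an assay whose transposase cuts open chromatin and whose barcodes tell nuclei apart. The series holds 9 organs or stages with 2 libraries each, and the deposited table gives 128764 regions in 128 columns, each column being 1 cell state of 1 organ. The early seed and late seed groups share genotype, handling and assay, and neither carries a treatment, a transgene or a mutation. The labels used here give no days after pollination for either stage. Early seed supplied 14 columns and late seed 13, and a cell state was taken when the same label stood under both stages, which left 10 labels and 20 columns. The labels Central_endosperm, Dorsal_endosperm and Aleurone formed the endosperm class of 3. The other class of 7 held Scutellum, Scutelar_vascular_bundle, Epiblast, Coleoptile, Shoot_meristem and Radicle_meristem, which are embryo structures, and Nucellar_epidermis, which is maternal tissue. Epiblast was placed with the embryo from its textbook meaning.

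A cereal seed joins tissues of different origin. The endosperm descends from the fertilised central cell and stores starch and protein, and its outermost layers become the aleurone, which stays alive and releases hydrolytic enzymes at germination. The embryo forms a scutellum, the absorbing organ that faces the endosperm, a shoot meristem under the protective coleoptile, and a radicle meristem, while the epiblast is a small flap of embryo tissue opposite the scutellum. The nucellus belongs to the mother plant and surrounded the embryo sac before fertilisation. During seed filling the central endosperm is packed with starch and later dies, while embryo and aleurone acquire tolerance to drying.

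Each value is a log2 of CPM (counts brought to one common total) for a region of 501 bases, pooled by the authors over the libraries of a stage, so neither stage has a replicate within a label and no test could be run between stages. Differences below are late minus early on the deposited log2 scale, and a region was called when the difference was at least 1, a 2-fold change, and the higher of the pair reached a CPM of 5. All 10 comparisons draw on the same 2 early and 2 late libraries, so agreement among labels is not replication, and stage and library cannot be told apart. Sequencing depth per column is unknown, and the count of distinct values per column stood in for it: the early columns held 475 to 1383 and the late columns 143 to 562, with the late column the poorer one in every label. In bulk-like pooled columns, fewer open nuclei and less open chromatin per nucleus cannot be told apart. The files name no genes, so the labels could not be checked against marker genes and are used as the authors gave them.

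Every cell state differed between stages at many regions, in both directions to nearly the same extent. Calls per label ran from 8085 to 23827 with a median of 15766.5, and between 46.9% and 49.6% of them were higher in late seed. The authors had scaled all columns to nearly 1 distribution, and the median difference of a label lay between 0.01 and 0.03, so the balance of the counts is not a result.

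In the endosperm class, the central endosperm had 72286 regions that reached a CPM of 5 in either stage, of which 8012 (11.1%) were higher and 8540 (11.8%) lower in late seed. The dorsal endosperm, the filling tissue next to the main vascular supply of the grain, had 7536 higher (10.5%) and 8417 lower (11.8%). The aleurone had 5644 higher (8.13%) and 6016 lower (8.66%). The aleurone thus had fewer calls than either starchy tissue. Central endosperm, dorsal endosperm and aleurone held 548, 575 and 1383 distinct values in early seed. In late seed they held 145, 372 and 382, and the part of depth in these counts was not tested.

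Among the embryo labels, the scutellum had 6361 regions higher (9.15%) and 7207 lower (10.4%). The epiblast had 3911 higher (5.72%) and 4174 lower (6.11%), the smallest counts of the 10 labels. The scutellar vascular bundle, the conducting strand of the scutellum, had 11825 higher (16.1%) and 12002 lower (16.3%), the greatest counts. The epiblast pair was also the best matched in depth, with 629 distinct values early and 562 late, whereas the scutellar vascular bundle had 655 and 323, and the part of depth in these counts was not tested.

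The coleoptile had 8748 regions higher (12.2%) and 9314 lower (13%). The shoot meristem had 8470 higher (11.8%) and 9285 lower (13%), with only 143 distinct values in its late column. The radicle meristem had 6430 higher (9.23%) and 7285 lower (10.5%). The shoot apex and its sheath thus showed more calls than the root pole. In the maternal nucellar epidermis 7375 regions were higher (10.5%) and 8205 lower (11.7%), within the range of the embryo labels.

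**Figure D1:**
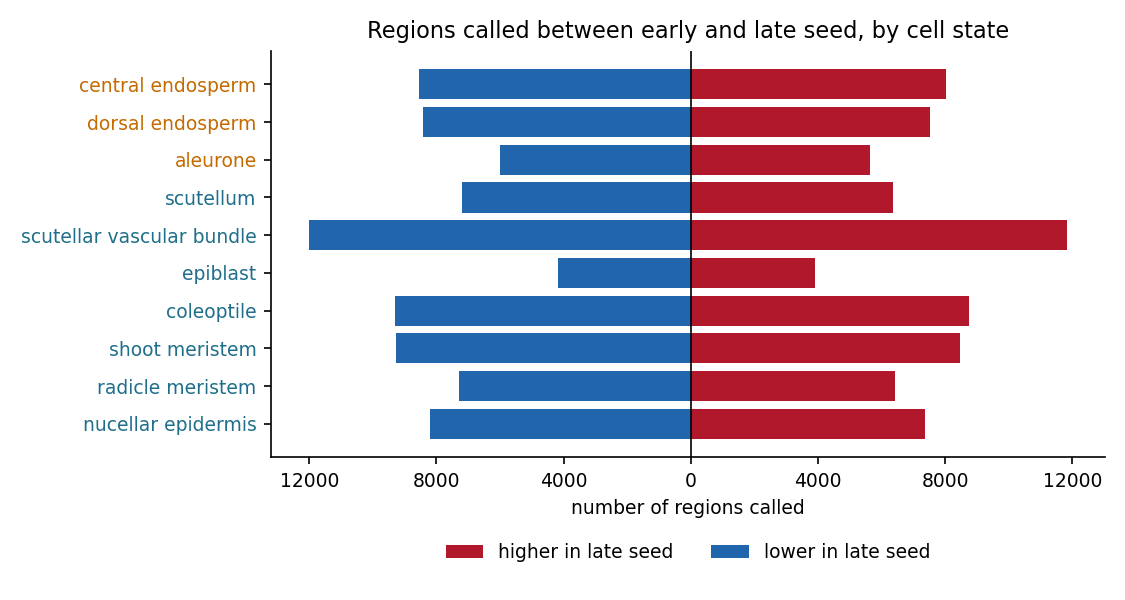
Number of regions called higher (right, red) and lower (left, blue) in late than in early seed for each label, with endosperm labels in orange and embryo and maternal labels in teal. The bars are near mirror images in every label, and the scutellar vascular bundle, at 11825 and 12002, stands at about 3 times the epiblast at 3911 and 4174.

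As a yardstick from the same table, different labels of 1 stage were compared by the same rule. Scutellum and epiblast differed at 3107 regions in early and 3456 in late seed, fewer than the 8085 of the epiblast against itself across stages. Central and dorsal endosperm differed at 3467 regions in early seed, and at 14574 in late seed, against 16552 and 15953 for each of them across stages. Late central endosperm and aleurone differed at 21007 regions, more than either did across stages, where the aleurone had 11660. Endosperm labels against embryo and maternal labels of the same stage differed at a median of 24094 regions in early and 27700 in late seed. The stage difference of an endosperm label was thus larger than the differences among endosperm labels in early seed but not throughout late seed, and in all 10 labels it was below the median difference between endosperm and the rest.

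On average the cell states stood farther apart in late seed. The 3 pairs of endosperm labels had a mean correlation across regions of 0.915 in early and 0.826 in late seed. The 21 pairs among embryo and maternal labels had means of 0.873 and 0.820. The 21 pairs across the classes had means of 0.796 and 0.726. All 3 kinds of pair moved the same way, while every late column was also the one with fewer distinct values, whose part in the lower correlations was not tested.

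Not every label found its own counterpart in the other stage. The correlation of a label's early and late columns ran from 0.740 to 0.879 with a mean of 0.823 over the 10 labels. For 7 of 10 labels the early column was most like the late column of the same name, counting stage-only states too, and the same number held for the late columns. The scutellar vascular bundle failed in both directions. Its early column correlated at 0.824 with late nucellar epidermis and at 0.782 with late coleoptile, against 0.740 with its own late column. Its late column correlated at 0.823 with early epiblast, and within late seed at 0.8999 with epiblast and 0.871 with scutellum. In early seed its nearest state was the nucellar epidermis at 0.885. A high correlation with early nucellar epidermis was not confined to this label, as early shoot meristem reached 0.912 and early coleoptile 0.899. By nearest state, the scutellar vascular bundle column lay beside a maternal state in early seed and beside embryo states in late seed. Differences for this label may compare different cells. Several of the counts below are given also without it.

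The other mismatches were narrow or turned on states found in 1 stage only. Early central and dorsal endosperm were nearest to the late-only label Dorsal_lateral_endopserm, at 0.838 and 0.868, ahead of late dorsal endosperm at 0.829 and 0.836, and the early central endosperm reached 0.814 with its namesake. The late scutellum was nearer to early epiblast, at 0.862, than to early scutellum, at 0.847. The late shoot meristem was nearer to early nucellar epidermis, at 0.806, than to its namesake, at 0.801. The aleurone was nearest to itself in both directions, at 0.852, with the runner-up at 0.810 or lower. The early radicle meristem had the widest lead of the early embryo columns, at 0.826 with its namesake and 0.763 with the next late column.

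**Figure D2:**
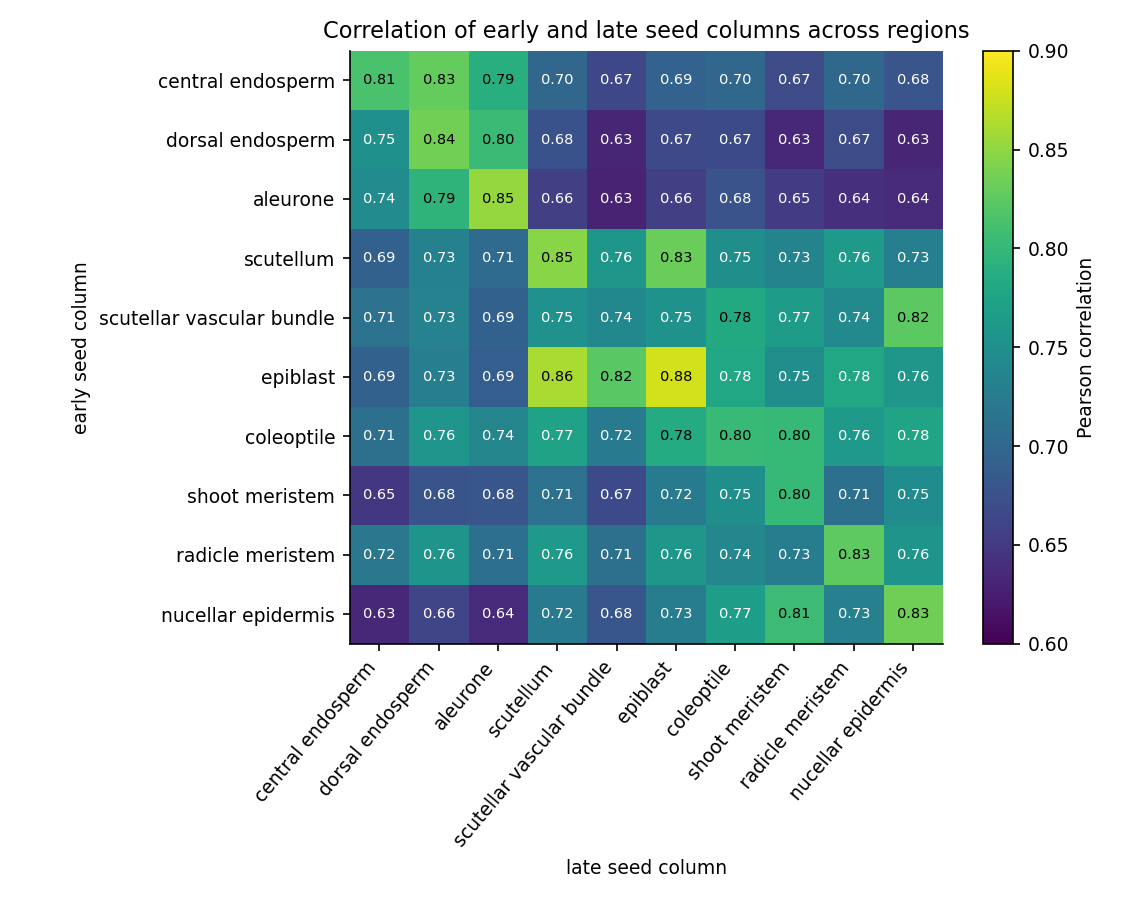
Pearson correlation across 128764 regions between each early seed column (rows) and each late seed column (columns) of the 10 shared labels, with the colour scale from 0.6 to 0.9. The endosperm labels form a block at the upper left, the epiblast against itself is the highest value at 0.88, and the early scutellar vascular bundle is highest against late nucellar epidermis at 0.82.

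Regions called in every endosperm label numbered 1397 higher in late seed, 2.45% of the 57067 that reached the CPM minimum in all 3, and 1392 lower, 2.44%. In all 7 embryo and maternal labels 361 regions were higher, 0.739% of 48863, and 395 lower, 0.808%. In all 10 labels 200 were higher, 0.468% of 42742, and 117 lower, 0.274%. Without the scutellar vascular bundle the counts became 467 and 580 over the embryo and maternal labels and 239 and 136 over all labels. Single-label calls were far more common, as 50.8% of the 33454 regions called higher anywhere were called in 1 label, and 50.9% of the 36339 called lower.

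The regions called in all 3 endosperm labels were set beside the calls in the 7 other labels. Of the 1397 regions higher in all 3 endosperm labels, 1199 (85.8%) were also called higher in some embryo or maternal label and 198 in none. Of the 1392 lower regions, 1033 (74.2%) were also called lower elsewhere and 359 in none. Without the scutellar vascular bundle, 222 and 400 were called in endosperm alone. Of the 1397 and the 1392, 16 and 23 were called the opposite way in some embryo or maternal label. In single labels of that class, 5.72% to 16.1% of eligible regions were called higher and 6.11% to 16.3% lower. The share of all eligible regions called in at least 1 of the 7 was not computed. These overlaps thus have no base share beside them and do not show whether endosperm-wide calls were shared more than others. Of the regions called in all 7 embryo and maternal labels, 19 higher and 51 lower were called in no endosperm label, and none was called the opposite way in endosperm.

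The rise that was greatest in its weakest endosperm label lay at chr1:10901501-10902001, in the coordinates of the deposited files. Its CPM was 0.450 in central endosperm, 1.09 in dorsal endosperm and 0.744 in aleurone in early seed, and 6.08, 10.5 and 7.68 in late seed. In the 7 other labels it ran from 0.491 to 2.25 early, with a median of 1.33, and from 3.69 to 10.3 late, with a median of 5.41. All 10 late values lay above all 10 early values, and the mean log2 difference was 3.47 in endosperm and 2.26 elsewhere. The authors' list names it as specific to 2 cell states, both of late seed, and outside the seed its highest CPM was 3.18, in leaf guard cells.

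A second such region, chr1:33325774-33326274, had CPM values of 0.644, 1.23 and 1.07 in early central endosperm, dorsal endosperm and aleurone and of 5.06, 9.81 and 7.22 in the late columns. The other labels spanned 0.694 to 2.25 early and 3.35 to 5.95 late. The third, chr1:27804345-27804845, rose as much outside the endosperm, by a mean of 2.87 against 2.73, and the authors' list names it for 10 late seed states and no early one. All 3 regions were higher in late seed in each of the 10 labels.

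The endosperm-wide falls included a region with a clear class difference. At chr2:20236208-20236708 the CPM was 8.82 in central endosperm, 12.2 in dorsal endosperm and 6.42 in aleurone in early seed, and 1.30, 1.62 and 0.816 in late seed. The 7 other labels ran from 5.24 to 17.8 early and from 2.06 to 11.7 late, so that their ranges overlapped. The mean log2 difference was -2.88 in endosperm and -0.98 in the rest.

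At chr8:10876967-10877467 the early CPM was 10.6 in central endosperm, 14.0 in dorsal endosperm and 15.9 in aleurone, and the late CPM was 0.867, 1.496 and 2.34. The other labels started lower, at 2.80 to 5.60, and ended at 0.311 to 1.502. The early endosperm values lay above all other early seed values among the shared labels, and the authors' list names the region for 8 early seed states and no late one. At chr9:11066129-11066629 the mean difference was -3.34 in endosperm and -2.12 elsewhere, with the scutellum as the label that changed least, from a CPM of 8.07 to 5.91.

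Regions called in all 3 endosperm labels and in no other were looked up separately, after their values had been seen. The one with the greatest smallest rise, chr4:4963388-4963888, went from CPM values of 1.18, 1.33 and 1.23 to 8.52, 9.81 and 6.76 in central endosperm, dorsal endosperm and aleurone. The other labels went from 0.459 to 1.95 up to 1.99 to 4.28, all below the minimum of 5 but all higher than before. Among the falls, chr6:24349310-24349810 went from 5.54, 7.33 and 7.99 to 0.257, 1.26 and 0.947 in the 3 labels. The other labels started at 0.903 to 3.66, under the minimum, and ended at 0.450 to 2.06, with the coleoptile going from 2.25 to 0.450 and the scutellar vascular bundle level at 2.08 and 2.06. The next fall, chr11:8665166-8665666, went from 7.34, 9.97 and 8.46 to 0.867, 1.87 and 1.14. There the scutellum went from 5.15 to 3.97, the shoot meristem from 4.03 to 1.507 and the nucellar epidermis from 2.33 to 0.742. In all 3 regions other labels also changed by more than 2-fold, and they missed a call because they stayed under a CPM of 5.

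In the embryo and maternal class, the greatest smallest rise was at chr4:25116839-25117339. Its early CPM ran from 0.239 to 1.21 over the 7 labels, with a median of 0.759, and its late CPM from 5.44 to 7.70, with a median of 6.39. The endosperm labels went from 0.836, 1.09 and 0.699 to 2.57, 8.89 and 6.29, so the central endosperm was the single label in which the late value stayed under 5. The list of the authors gives 7 late seed states for it and no early one. At chr1:42125988-42126488 the 7 labels went from 0.946 to 1.84 up to 6.45 to 9.84, and the mean difference was 2.65 against 1.57 in endosperm. At chr10:21822961-21823461 it was 2.49 against 1.93.

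The greatest smallest fall of this class was at chr5:5653410-5653910, which the authors list as broadly accessible. The shoot meristem was highest in early seed, at 20.9, and the 7 labels ran from 5.42 to 20.9 with a median of 8.98. In late seed they ran from 0.270 to 2.78, with a median of 0.975. The endosperm labels stood at 4.27, 4.93 and 4.94 early and 1.70, 0.643 and 1.72 late. No early value of the 7 labels overlapped a late one.

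At chr4:10624499-10624999 the classes parted. The 7 embryo and maternal labels fell from 12.2 to 19.2 down to 1.502 to 4.02. Central endosperm went from 18.8 to 14.2, dorsal endosperm from 10.2 to 4.001 and aleurone from 23.8 to 10.4. The region stayed open in late endosperm and aleurone beyond any late embryo or maternal value except for the dorsal endosperm, which was level with the radicle meristem at 4.02.

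Over all 10 labels the greatest smallest rise was at chr1:33046769-33047269, where early CPM was 0.764 to 2.41 and late CPM 5.71 to 11.7 across the 20 columns. The mean log2 difference was 2.56 in endosperm and 2.51 elsewhere. The greatest smallest fall was at chr12:21754818-21755318, where early CPM was 5.32 to 11.3 and late CPM 0.289 to 1.70, with mean differences of -3.28 and -3.49. Neither region told the classes apart.

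The classes were also compared through their ranges. Among 108502 regions with a CPM of 5 in any of the 20 columns, the 3 endosperm differences all lay above the 7 others in 3002 regions, 2.77%, and all below in 2495, 2.30%. In 385 regions all 3 endosperm differences were above 0 and all 7 others below 0, and in 300 the reverse held. Without the scutellar vascular bundle the separated regions numbered 3986 and 3496.

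The region with the greatest class difference in favour of the endosperm, chr4:34230452-34230952, had CPM values of 9.14 and 13.4 in early and late central endosperm. Dorsal endosperm stood at 1.42 and 1.87 and aleurone at 1.27 and 1.56. The other labels fell from a range of 1.45 to 12.6 to one of 0.172 to 1.51, the coleoptile from 10.8 to 0.679. In late seed it was open in the central endosperm alone among the shared labels.

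The next regions of this kind also turned on late central endosperm. At chr1:24140173-24140673 the central endosperm went from 0.508 to 9.47, dorsal endosperm from 0.321 to 1.36 and aleurone from 0.396 to 2.05, while the other labels ran from 0.605 to 1.91 early and 0.466 to 2.07 late. At chr1:34984646-34985146 central endosperm went from 2.08 to 9.47 and the rest of the late columns stayed between 0.464 and 2.34. The same late value, 9.47, in both regions is a step of the central endosperm column, which holds 145 distinct values, so its levels are coarse.

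In the opposite direction, chr8:8534563-8535063 fell in aleurone from 6.38 to 0.947, in central endosperm from 1.99 to 0.257 and in dorsal endosperm from 0.709 to 0.272. The coleoptile went from 1.22 to 4.59 and the epiblast from 0.405 to 1.49. At chr12:2614072-2614572 the coleoptile rose from 0.325 to 8.92 and the nucellar epidermis from 2.01 to 6.88, while aleurone went from 3.17 to 0.816. At chr11:13456833-13457333 the dorsal endosperm went from 5.97 to 0.156 and no value of the 7 other labels exceeded 1.18 in either stage. At none of these regions did more than 2 of the 20 columns reach a CPM of 5.

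The contrast between endosperm and the rest was largely kept from early to late seed. The mean endosperm level minus the mean of the others correlated at 0.817 across regions between the stages, a description over regions of the same libraries. Of 12236 regions with a contrast of at least 1 in early seed, 70.7% had one in late seed. Of 13582 regions with a contrast of -1 or less, 59.2% kept it. The late sets numbered 12625 and 13653, of which 68.5% and 58.9% were shared with the early sets.

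The greatest rise and the greatest fall of each label gave 20 regions, of which 16 moved in the same direction in all 10 labels and 4 by at least 2-fold in all 10. The greatest rise per label ran from a log2 difference of 4.16 in epiblast to 6.09 in coleoptile, and the greatest fall from -4.41 in epiblast to -7.17 in the scutellar vascular bundle. The latter, at chr1:15406614-15407114, had a CPM of 24.8 in the early scutellar vascular bundle and 0.172 in the late one. In nucellar epidermis it went from 1.67 to 7.64, and in central endosperm it stood at 6.33 and 8.06. No other shared column of either stage passed 1.51. Among the embryo and maternal labels the open one was thus the scutellar vascular bundle in early and the nucellar epidermis in late seed, the pair of columns that the correlations also joined.

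At chr2:23055458-23055958 the coleoptile went from 0.175 to 11.9 and the scutellar vascular bundle from 0.271 to 12.7, with the other late columns at 0.478 to 3.09. At chr4:10316648-10317148 the nucellar epidermis went from 10.7 to 0.135 and the scutellar vascular bundle from 5.80 to 0.464. Early values of both states were the highest of the 10 labels there. At chr1:22453328-22453828 the dorsal endosperm went from 0.321 to 8.89, the central endosperm from 0.366 to 3.56 and the aleurone from 0.396 to 2.18, while the radicle meristem was open at both stages, at 10.4 and 10.6. At chr5:17129094-17129594 the aleurone went from 9.17 to 0.194, the shoot meristem from 5.77 to 1.12, nucellar epidermis from 3.09 to 1.11 and dorsal endosperm from 3.26 to 1.26. The region at chr1:22453328-22453828 was higher in late seed in all 3 endosperm labels and level in the radicle meristem. Its log2 difference was also above 1 in nucellar epidermis (2.41), scutellar vascular bundle (1.41), epiblast (1.24) and coleoptile (1.03). It was 0.48 in scutellum and -0.21 in shoot meristem. The region at chr5:17129094-17129594 was lower in labels of both classes.

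At chr2:14728138-14728638 every label was lower in late seed, the epiblast from 5.21 to 0.246 and the dorsal endosperm from 27.1 to 9.44. Its highest CPM outside the seed was 2.52, in a panicle column. The endosperm values of both stages, at 20.7 to 27.1 and 7.07 to 11.96, lay above those of all other labels in the same stage. The region was thus marked by its level in endosperm at both stages and by a fall in all labels.

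The regions called in endosperm alone were open outside the seed less often than the background, though many were. Of the 57067 regions that could be called in all 3 endosperm labels, 94.8% reached a CPM of 5 in some column outside the seed. Of the 198 higher in endosperm alone 94 did, 47.5% with an exact 95% binomial interval of 40.4% to 54.7%. Of the 359 lower in endosperm alone 226 did, 63.0% with an interval of 57.7% to 68.0%. The intervals cover counting error only and take regions as independent, though called regions lay side by side more often than regions in general. The rule itself requires these regions to lack a call in every embryo and maternal label. Their early median log2 level over those labels was 0.38 for the higher and 1.58 for the lower regions, against 3.41 in the background. The background was thus not matched in level, and the lower shares partly follow from the rule.

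The authors' list gave the same order, but it derives from the same nuclei as the values and is not separate support. It marks 10.4% of listed regions in the endosperm background as specific to named cell states, 78.6% of the listed regions higher in endosperm alone (143 of 182) and 63.5% of those lower (219 of 345). Regions higher in all 10 labels were marked specific in 46.7% of cases (78 of 167), and regions lower in all 10 in 0 of 111, which allows up to 3.27% by the exact interval. Regions higher across the whole seed and regions lower across it thus differed on the list. Of those eligible in all 10 labels 1.13% were marked specific.

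The other organs showed the same asymmetry. Regions higher in all 10 labels had a median log2 level of 1.34 over early seed columns and 3.15 over late ones, and stood at 2.54 in leaf, 1.88 in early seedling, 1.64 in panicle and 1.19 in crown root. Regions lower in all 10 had medians of 3.58 in early and 1.73 in late seed, and stood at 3.19 in panicle, 3.03 in axillary bud, 3.02 in seedling and 1.66 in leaf. Outside the seed, the regions higher in late seed thus had their highest median in leaf. The lower ones had higher medians in panicle, bud and seedling than in leaf. Regions eligible in all 10 labels stood at 3.59 in crown root to 3.74 in panicle, so both sets lay below that background in every organ. Over all regions the medians were 2.09 in leaf and 2.16 in panicle.

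The same shift appeared over all regions. Each seed column was correlated with all columns of each other organ and the correlations averaged. With leaf the mean over the 10 labels was 0.594 in early and 0.645 in late seed, a change of 0.0508 ± 0.0234 (SD over 10 labels, which are not replicates), and it was upward in 10 of 10 labels, by 0.0244 to 0.0961. With panicle the mean went from 0.681 to 0.612, a change of -0.0691 ± 0.0349, downward in 10 of 10. With axillary bud the change was -0.0500 ± 0.0317, also downward in 10 of 10.

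Roots gave no common direction, with changes of 0.00053 for crown root and -0.00426 for seminal root and 5 and 4 of 10 labels upward. Seedling and early seedling lay between, at -0.0383 and -0.0259, each with 2 of 10 labels upward. The endosperm class moved away from panicle by less than the embryo and maternal class, -0.0392 against -0.0819, and toward leaf by about as much, 0.0464 against 0.0527. The classes overlapped in both organs. Median distinct values per column were 691 in panicle, 472 in axillary bud, 429.5 in leaf and 320 in seminal root. They were 300.5 in crown root, 212 in seedling and 195 in early seedling. Late seed columns were poorer than early ones in every label, so depth moved with stage, and its part was not tested.

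**Figure D3:**
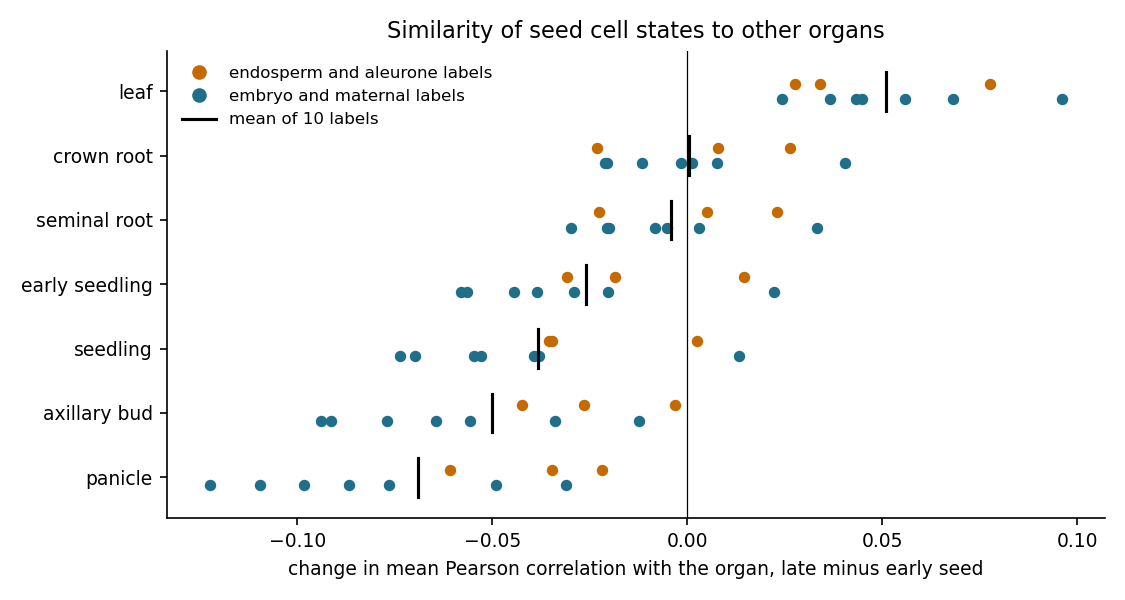
Change in mean Pearson correlation with the columns of each organ, late minus early seed, for each of the 10 labels (points, endosperm class in orange, embryo and maternal labels in teal) and their mean (black bar). All points lie above 0 for leaf and below 0 for panicle and axillary bud, while those of the roots straddle 0.

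A further difference ran along the chromosomes. Gene-rich chromosome arms carry many accessible regions and the stretches rich in repeats carry few, so the number of table regions within 500 kb on either side was used to sort regions into 4 classes of local density, from 61 to 301 neighbours in the sparsest to 463 to 575 in the densest. In the sparsest class the mean late minus early difference was -0.22 over the endosperm labels and -0.25 over the others. In the next classes it was -0.06 and -0.03, then 0.11 and 0.11, and in the densest 0.17 and 0.17. Calls followed, with 17.4% of eligible regions, pooled over labels, lower and 7.91% higher in the sparsest class, and 7.88% lower and 12.5% higher in the densest. Both classes of tissue thus shifted from sparse to dense stretches.

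The direction was the same in each label. The mean level of the densest class minus that of the sparsest was -0.13 in early and 0.25 in late central endosperm, -0.19 and 0.30 in dorsal endosperm, and -0.27 and 0.03 in aleurone. It was 0.05 and 0.40 in scutellum, 0.14 and 0.51 in the scutellar vascular bundle, 0.29 and 0.56 in epiblast, and 0.18 and 0.64 in coleoptile. It was 0.03 and 0.50 in shoot meristem, 0.15 and 0.62 in radicle meristem, and 0.23 and 0.74 in nucellar epidermis. The early endosperm and aleurone columns were the ones in which sparse stretches were the more open. The change was 0.41 ± 0.09 over the 10 labels, 0.39 over the 3 endosperm labels and 0.42 over the 7 others, with no gap between the classes.

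Set beside the other organs, early seed stood apart. Its columns ran from -0.30 to 0.29 with a median of 0.14, and those of late seed from 0.03 to 0.74 with a median of 0.49. Medians elsewhere ran from 0.39 in panicle to 0.70 in crown root, and the lowest column outside the seed was a panicle one at 0.24. Thus only the top of the early seed range reached the bottom of the other organs, while late embryo and maternal labels lay among them. Late aleurone, at 0.03, and the late-only Dorsal_lateral_endopserm, at 0.16, remained below. Late central and dorsal endosperm, at 0.25 and 0.30, lay near the bottom of the other organs. The panicle, with more distinct values per column than early seed (691 against 640 at the median), had the lowest median of the organs outside seed. Depth moved with the result between the stages, and its part was not tested. Within each of 4 classes of mean level the densest stretches gained more than the sparsest, from 0.38 against -0.23 among the least open regions to 0.07 against -0.17 among the most open.

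**Figure D4:**
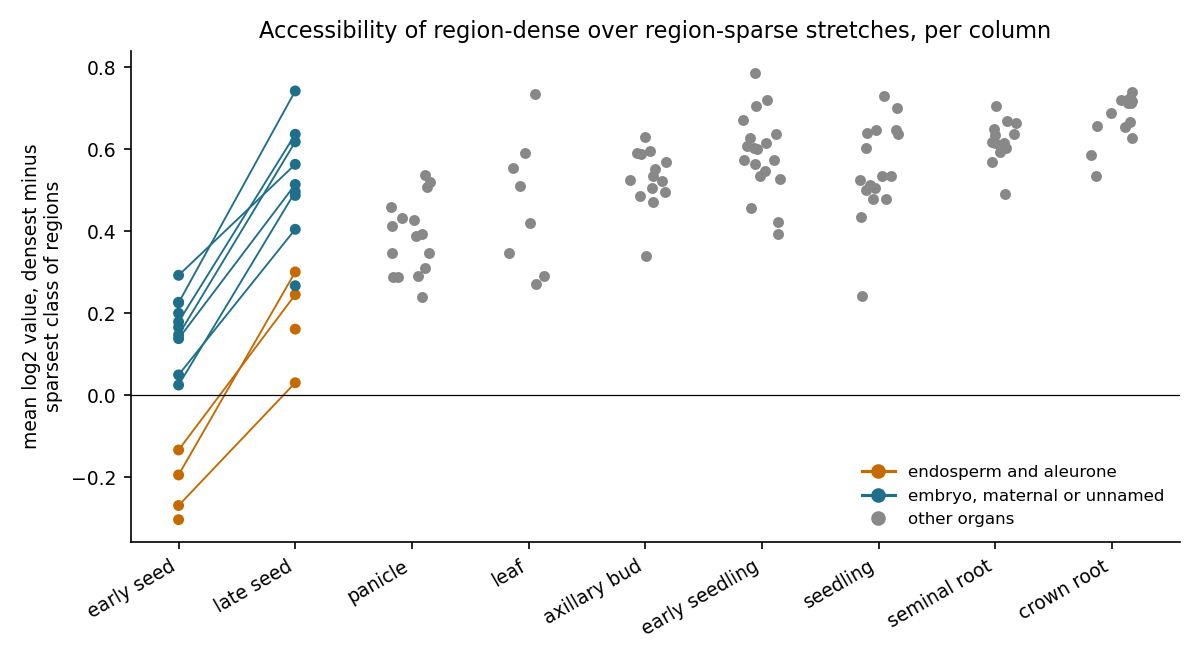
Mean log2 value of the densest of 4 classes of regions minus that of the sparsest, per column, by organ; lines join early and late columns of the same label, orange marks endosperm and aleurone columns, teal other seed columns and grey other organs. Every line rises from early to late, and early endosperm and aleurone columns, at -0.30 to -0.13, are the points below 0.

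In 378 windows of 1 Mb holding at least 50 regions, the number of regions and the mean difference correlated at 0.741, with windows on the same chromosome sharing libraries and neighbours. Of 85 windows with 450 regions or more, 80 had a mean difference above 0. Of 54 windows with up to 200 regions, 10 did. Several of those 10 were sparse windows in chromosome interiors, picked out here after their values were seen. Between 9 and 10 Mb of chromosome 4, with 76 regions, the mean difference was 0.40 in endosperm and 0.20 in the other labels. Between 12 and 13 Mb of chromosome 7, with 133 regions, it was 0.23 and 0.16, and between 12 and 13 Mb of chromosome 11, with 93 regions, 0.12 and 0.12.

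Some sparse windows parted the classes. Between 13 and 14 Mb of chromosome 8, with 101 regions, the mean difference was 0.26 in endosperm and -0.03 elsewhere. Between 12 and 13 Mb of chromosome 5, with 87 regions, it was 0.18 and -0.03. Between 10 and 11 Mb of chromosome 4, next to the window that rose in both, it was -0.34 and -0.60. In the first Mb of chromosome 11, with 420 regions, endosperm was at -0.11 and the rest at 0.12, the greatest class difference in that direction.

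**Figure D5:**
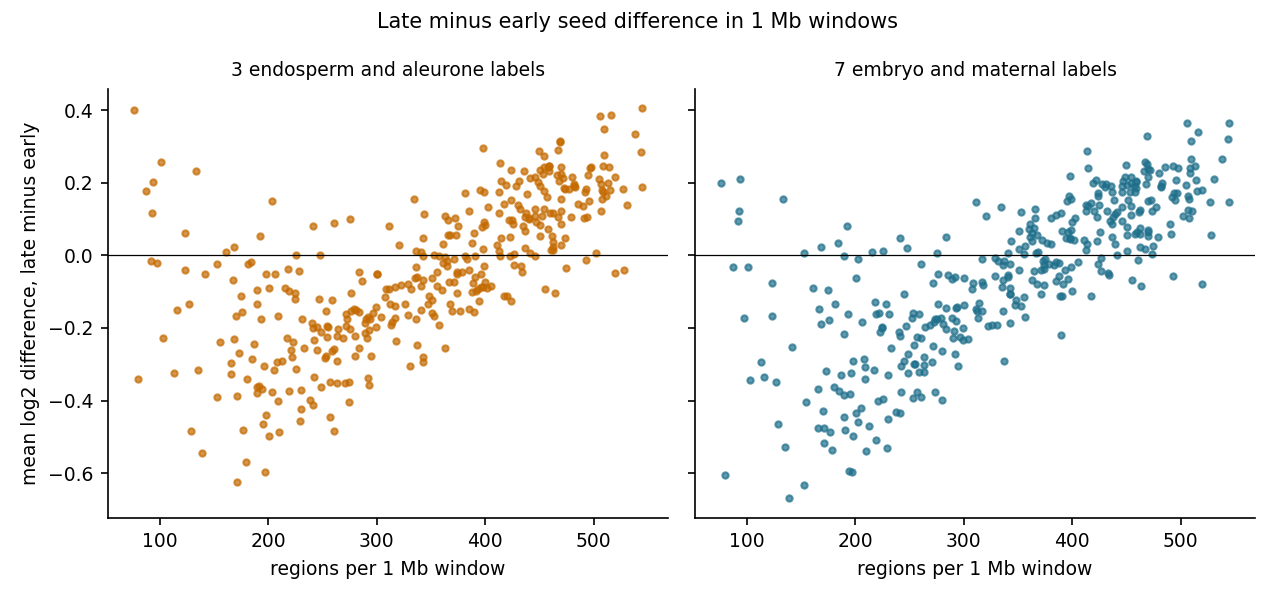
Mean log2 difference, late minus early, in 378 windows of 1 Mb against the number of regions in the window, for the endosperm class (left) and the embryo and maternal class (right). Differences rise with region number in both panels, and a few windows with about 100 regions lie above 0.

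Chromosomes differed in their mean. Chromosomes 1, 2 and 3 had mean differences above 0 in all 10 labels, and chromosomes 6, 9, 10, 11 and 12 in none. Chromosome 3 stood at 0.14 in endosperm and 0.10 in the other labels, with a median local density of 447. Chromosome 11, with a median density of 301, stood at -0.22 and -0.13, the widest gap between the classes. Density did not set the order in full: chromosome 9 stood at -0.12 and -0.13 with a median density of 421, and chromosome 4 at 0.02 and -0.02, above 0 in 4 of 10 labels, with one of 444.

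Called regions lay near another region of the same call more often than regions in general did, though most did not. Of the regions higher in all 3 endosperm labels that had another region within 5 kb, 11.6% had one with the same call, against 1.86% of all regions with such a neighbour. For the lower set the shares were 10.9% and 1.81%, and for regions lower in all 10 labels 10.5% and 0.154%. The densest run of endosperm rises lay on chromosome 3 between 19550137 and 19575464, where 7 of 9 regions were higher in all 3 endosperm labels, with mean differences of 1.60 in endosperm and 0.97 elsewhere. On chromosome 6 between 15890461 and 15896146, 3 of 6 regions were lower in all 10 labels, with means of -1.81 and -1.76. Reads of 1 fragment can fall in neighbouring regions, and the part of this was not tested.

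The authors' list of specific regions, made by a rule not given in the sources used here, overlapped between stages to a different degree in each label. The aleurone shared 4062 regions, 57.8% of its early and 66.2% of its late list. Central endosperm shared 2791, 43.8% and 64.9%, and dorsal endosperm 3487, 47.3% and 55.4%. The nucellar epidermis shared 2799, 48.7% and 54.3%. The aleurone had the highest share in both directions.

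The embryo lists were shorter than those of the endosperm labels. The epiblast shared 936 regions, 45.3% of its early and 41.4% of its late list, and the scutellum 1061, 40.1% and 38.8%. Shoot meristem shared 35.3% and 35.9%, radicle meristem 31.4% and 34.6%, and coleoptile 29.8% and 22.7%. The scutellar vascular bundle shared 630 regions, 13.5% and 24.3%, the lowest share of an early list, as the coleoptile's 22.7% was of a late one. Over whole stages, 13911 regions were named for both, 66.3% of the 20972 named for early and 68.1% of the 20426 named for late seed, and 7511 of them for no other organ. The share kept within the seed was higher, in both directions, than that kept within any single label.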

How the data were processed

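Single-nucleus ATAC libraries of early and late seed (2 each, 16000 nuclei per library per the labels) were analysed with the columns of 7 other organs for context. BWA and MACS2 are named in the submitters' processing notes; the sources used here name no versions, genome build, doublet handling or clustering. The authors deposited log2 values derived from CPM, pooled over libraries and scaled to nearly 1 distribution, so no count test, SD over replicates or depth per column was available. Tests were planned for CPM; the deposited log2 scale was used, with CPM as 2 raised to the value. Differences, calls and correlations were computed with Python 3.11.15, numpy 2.4.6, pandas 2.3.3 and scipy 1.17.1 and checked on simulated data. Named regions are those with the greatest smallest change over a class, the greatest class difference or the greatest change in a label. The class, labels and lists were chosen with earlier results of these data known. Gene lists and cell type markers were not run, since no annotation of the files' build was used here, and no sequence is shown. All 128 columns were assigned to an organ by the prefix of their names. Coordinates are counted from 1 in the unnamed build of the files.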

Additional observations from a re-analysis of the deposited data

Results flagged for a closer look

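In 385 regions the late minus early difference was above 0 in each of the 3 endosperm and aleurone labels and below 0 in each of the 7 embryo and maternal labels, and in 300 regions the opposite held. They were picked out because every label of 1 class moved one way and every label of the other class the opposite way. The difference between the classes was not tested, since labels of a stage share their libraries.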

How the results depend on the processing

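No paired analysis was possible because the columns carry no replicate number and pool both libraries. The summed calls, 74312 higher and 80445 lower, became 168174 and 171119 without a CPM minimum, 132019 and 138350 at a minimum of 2, 28717 and 35453 at 10, and 13911 and 15505 at a difference of 2; among broadly accessible regions 40618 were higher, and 40.0% of calls were higher there against 48.0%. With aleurone in neither class, 6212 and 5476 regions had the endosperm above and below. On log2(CPM + 1), regions lower in all endosperm labels numbered 900, in all embryo and maternal labels 259 and in all labels 70, and those higher in all labels 126. At a difference of 2 the higher and lower counts were 105 and 65 in all endosperm labels, 19 and 25 in those alone, 11 and 2 in all embryo and maternal labels, and 3 and 0 in all 10. Without the scutellar vascular bundle, central endosperm and shoot meristem, an alternative chosen after seeing the data like those for density and organs, they were 2900 and 2542, 775 and 987, 613 and 785, and 388 and 242. Among specific regions the mean stage correlation was 0.589 and the change toward leaf 0.135; the change from panicle, -0.0429, was then upward in 3 labels. The density change was 0.286 on log2(CPM + 1) and 0.298 among regions with a CPM of 5 in every label, upward in 10 of 10 in both.

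Leaving out each label in turn gave 3306 to 6340 and 2789 to 5476 separated regions. The higher and lower counts were 1397 to 2900 and 1392 to 3700 in all endosperm labels, 203 to 578 and 372 to 1190 in those alone, 361 to 516 and 395 to 580 in the rest, and 207 to 272 and 123 to 186 in all. Counts moved by over 1.5 times where an endosperm label was left out, since fewer labels must then share a call: separated regions were 6340 and 4641 without central endosperm, 5377 and 4972 without dorsal endosperm and 6212 and 5476 without aleurone, and endosperm-wide calls 2900 and 2542 without central endosperm and 2586 and 3700 without aleurone. The change was 0.0458 to 0.0538 for leaf, -0.0743 to -0.0632 for panicle and 0.397 to 0.424 for density. Gene list alternatives were not run.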
